A study of Mus musculus with 36 samples.

Results

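Cytotoxic lymphocytes kill with a small set of granule proteins and signal with interferon-gamma, and 10 genes of that program were followed through 2 mouse models of breast cancer: Gzma, Gzmb, Prf1, Nkg7, Ncr1, Klrk1, Eomes, Ifng, Cxcl9 and Cxcl10. The genes were chosen by name, and all 10 were found among the 21650 genes measured in 36 RNA-seq libraries. The libraries came from tumors or whole mammary glands of female mice that had lactated, had their pups weaned and were then injected into the third gland through the teat canal, so that tumors grew from inside the ducts. BALB/c mice received 4T1 cells, a metastatic BALB/c mammary tumor line that carries luciferase, and C57BL/6 mice received Py230 cells, a line from tumors of mice with the MMTV-PyMT transgene, in which the mammary tumor virus promoter drives a viral oncogene. Control mice of each strain received Matrigel, the gel in which the cells were suspended, without cells. Tumors and Matrigel glands of each strain were taken at 1, 3 and 6 weeks post-inoculation (w p.i.), with 3 libraries in each of the 12 groups. Hosts were immunocompetent and of the strain from which their cells derived, and their ages at sampling are not in the labels. Each line is 1 cell line in 1 strain, so cell line and strain cannot be told apart between the models, and the Matrigel glands measure strain without tumor cells. Nothing in the labels ties a library to an animal, so p-values measure the spread between libraries.

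Natural killer (NK) cells and cytotoxic T cells release perforin, which opens membranes, and granzymes, proteases that enter through those openings and trigger death of the target cell. NK cells recognise stressed or transformed cells through activating receptors such as NKp46 and NKG2D, and the T-box factor EOMES helps to set up the cytotoxic program in both cell types. Both also secrete interferon-gamma, which acts on most cells of a tissue, and these answer with the chemokines CXCL9 and CXCL10, ligands of CXCR3 that draw further effector lymphocytes in.

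The sequences just upstream of 6 of the genes are shown because these genes form 3 of the pairs whose courses are described below: Cxcl9 with Cxcl10, Gzma with Ncr1, and Prf1 with Eomes. Each is the 250 bases before the RefSeq start (build GRCm38.p6), 5′ to 3′ on the gene's own strand. Capitals mark matches, on either strand, to 3 short motifs. These were the core of an interferon-stimulated response element (ISRE, GAAA and GAAA with 2 bases between), a T-box core (AGGTGT) and an NF-kappaB site (GGGA and TTCC with 2 bases between). The windows lie at chr5:92328080-92328329 (minus strand) for Cxcl9, chr5:92348890-92349139 (minus strand) for Cxcl10, chr13:113100982-113101231 (minus strand) for Gzma, chr7:4337465-4337714 (plus strand) for Ncr1, chr10:61297586-61297835 (plus strand) for Prf1 and chr9:118477939-118478188 (plus strand) for Eomes.
Cxcl9: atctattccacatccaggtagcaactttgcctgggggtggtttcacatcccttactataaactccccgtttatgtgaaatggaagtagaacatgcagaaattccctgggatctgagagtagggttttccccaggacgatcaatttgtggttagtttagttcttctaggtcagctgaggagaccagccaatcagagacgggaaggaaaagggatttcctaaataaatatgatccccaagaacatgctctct
Cxcl10: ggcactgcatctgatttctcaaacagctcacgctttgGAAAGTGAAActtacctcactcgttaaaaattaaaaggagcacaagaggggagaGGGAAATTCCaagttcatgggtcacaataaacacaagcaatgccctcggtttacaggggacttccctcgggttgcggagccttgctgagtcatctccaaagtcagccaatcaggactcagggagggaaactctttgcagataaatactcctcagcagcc
Gzma: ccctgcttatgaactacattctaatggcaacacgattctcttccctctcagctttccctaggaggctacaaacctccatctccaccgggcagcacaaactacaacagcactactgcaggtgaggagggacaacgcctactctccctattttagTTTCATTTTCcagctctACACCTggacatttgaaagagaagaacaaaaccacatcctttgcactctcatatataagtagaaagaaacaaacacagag
Ncr1: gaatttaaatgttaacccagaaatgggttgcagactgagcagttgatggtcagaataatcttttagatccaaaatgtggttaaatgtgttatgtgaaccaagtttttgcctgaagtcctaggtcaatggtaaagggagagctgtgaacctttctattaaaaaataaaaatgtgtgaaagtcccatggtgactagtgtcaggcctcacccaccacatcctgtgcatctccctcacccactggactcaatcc
Prf1: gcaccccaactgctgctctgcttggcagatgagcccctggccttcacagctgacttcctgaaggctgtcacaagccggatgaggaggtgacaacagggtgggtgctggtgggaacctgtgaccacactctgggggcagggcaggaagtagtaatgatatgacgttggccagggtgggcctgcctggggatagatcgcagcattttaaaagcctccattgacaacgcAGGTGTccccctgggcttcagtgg
Eomes: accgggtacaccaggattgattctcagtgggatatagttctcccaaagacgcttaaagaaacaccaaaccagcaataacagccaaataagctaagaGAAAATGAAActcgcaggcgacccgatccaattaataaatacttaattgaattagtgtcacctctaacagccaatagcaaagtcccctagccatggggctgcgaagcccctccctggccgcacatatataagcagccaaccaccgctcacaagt
Among 32851 mouse promoter windows of the same length, 2.98% held the ISRE core, 11.8% the T-box core and 1.21% the NF-kappaB letters. The Cxcl10 window held an ISRE core at 213 to 204 bases before the start and an NF-kappaB match at 159 to 150 bases. The Gzma window held an ISRE core on the opposite strand at 97 to 88 bases and a T-box core, also on the opposite strand, at 80 to 75 bases. The Prf1 window held a T-box core at 24 to 19 bases and the Eomes window an ISRE core at 154 to 145 bases. The Cxcl9 and Ncr1 windows held none of these letters. Of the other 4 genes, Nkg7 held a T-box core, whereas Gzmb, Klrk1 and Ifng held none of these 3. The matches did not overlap each other in any window, and a match is a run of letters, not a tested binding site.

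Values are scores. The deposited table gives each library on a scale on which its average gene is 0 and the SD over its genes is 1, so a score says how many SDs a gene lies above or below the average gene of its library. Across genes, 1 score unit went with 2.821 log2 units of mean normalized count, which gives the size of a difference only roughly. Read depth was unknown, and a low gene is measured less well. Ifng is the gene to which this applies most: the authors' mean normalized count was 7.40, and only 8.01% of genes had a lower one, against means of 75.0 (Eomes) to 829 (Cxcl9) for the other 9. All 10 are protein-coding genes. Among markers of the tissue, 8 adipocyte genes averaged scores of 2.06 to 2.27 and 8 epithelial genes 1.42 to 1.71 in the Matrigel groups, and 9 B cell genes averaged -1.22 to -0.88 over the 12 groups. Over genes, libraries of a group correlated at 0.947 or more, and the highest correlation of any pair of libraries was 0.993. The first 3-week 4T1 tumor was higher than the other 2 of its group in all 10 genes. Results of the 10 genes that turn on it are given without it as well, and lists of other genes were not counted without it.

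**Figure D1:**
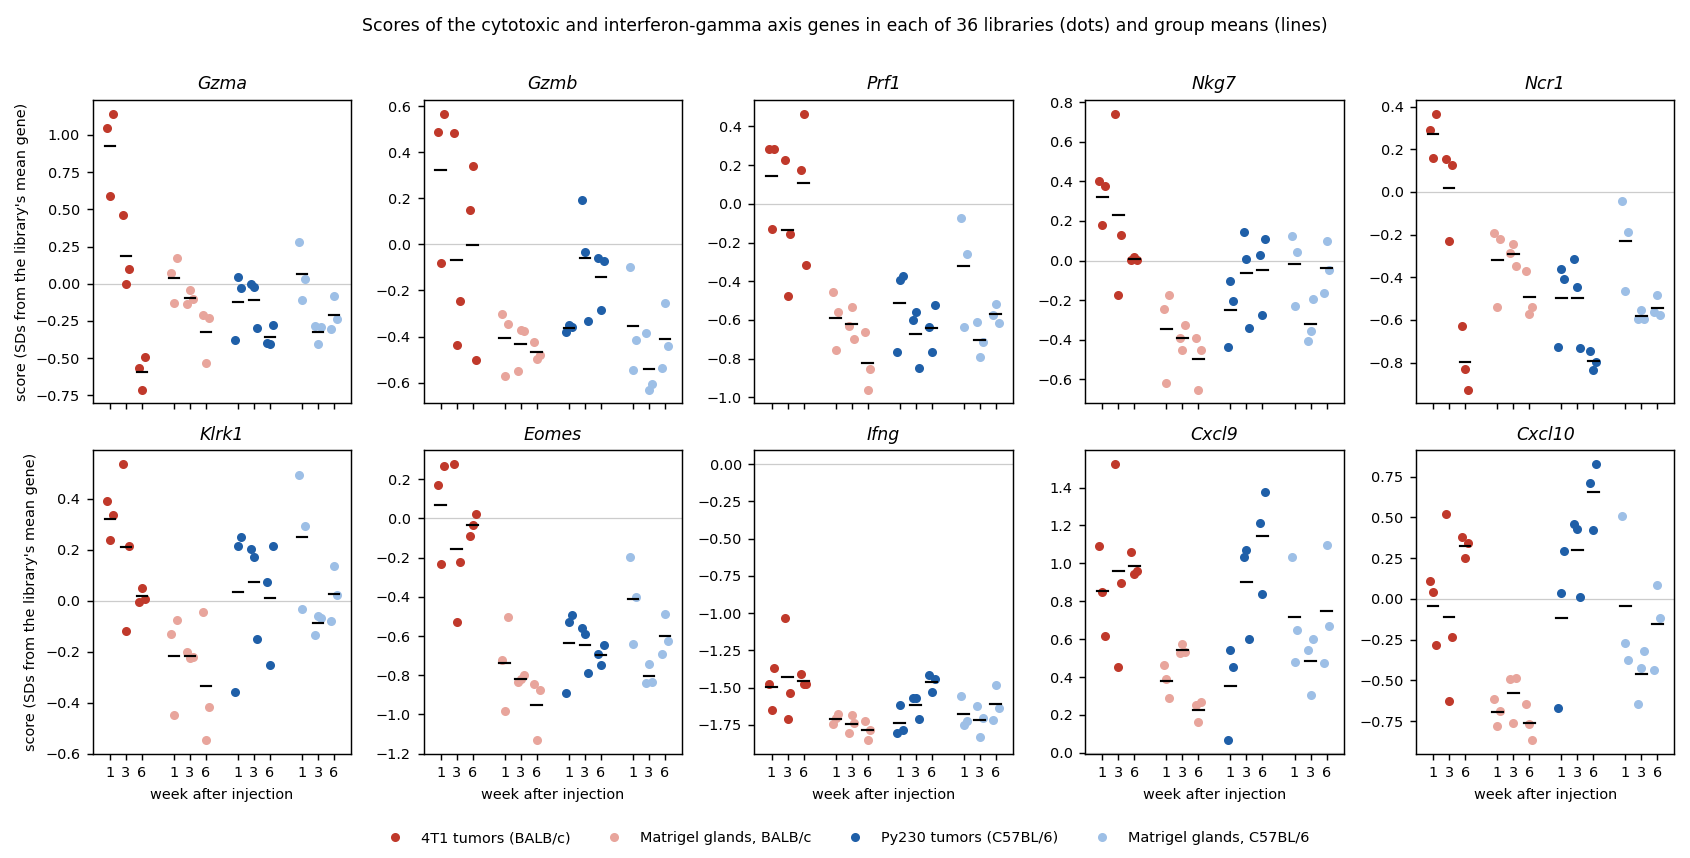
Score of each gene (y axis, SDs from the library's average gene) in every library (dots) by week post-inoculation (x axis) for 4T1 tumors, BALB/c Matrigel glands, Py230 tumors and C57BL/6 Matrigel glands, with lines at the group means. In 4T1 tumors Gzma goes from 0.92 on average at 1 w p.i. to -0.59 at 6 w p.i. and Ncr1 from 0.27 to -0.80, while the mean of Eomes is 0.07 and -0.03 and that of Cxcl10 is -0.04 and 0.32.

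Gzma (ENSMUSG00000023132, chr13:113093825-113100981, minus strand, build mm10), the gene of the trypsin-like protease granzyme A, was at its highest in young 4T1 tumors and at its lowest in old ones. Its scores in 4T1 tumors were 1.04, 0.59 and 1.14 at 1 w p.i., 0.46, 0.00 and 0.10 at 3 w p.i., and -0.57, -0.71 and -0.49 at 6 w p.i. The 3 weeks did not overlap. BALB/c Matrigel glands ranged from -0.13 to 0.17 at 1 w p.i. and from -0.53 to -0.21 at 6 w p.i., and Py230 tumors from -0.40 to 0.05 over all weeks. Gzma was thus higher in the 4T1 model at 1 w p.i., by 1.04 ± 0.14 score units over Py230 tumors (SE, limma with Benjamini-Hochberg adjustment over all genes, adjusted p = 5.5e-06) and higher than in BALB/c glands by 0.89 ± 0.14 (adjusted p = 0.0012). It then fell by 0.73 from 1 to 3 w p.i. (adjusted p = 0.013) and by 0.78 from 3 to 6 w p.i. (adjusted p = 3.4e-05). At 6 w p.i. the difference from BALB/c glands was -0.27 ± 0.14 (adjusted p = 0.093) and that from Py230 tumors -0.23 (adjusted p = 0.18), and without the second 6-week gland the former passed as lower (-0.37, adjusted p = 0.038). Over the 12 groups, 4T1 tumors at 1 w p.i. stood above the next group and 4T1 tumors at 6 w p.i. below the next without overlap, and the other 9 neighbouring pairs in the order overlapped.

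Prf1 (ENSMUSG00000037202, chr10:61297833-61304680, plus strand), which encodes perforin, separated 4T1 from Py230 tumors at every week, with the 4T1 tumors higher. In 4T1 tumors it scored 0.28, -0.13 and 0.28 at 1 w p.i., 0.23, -0.48 and -0.16 at 3 w p.i., and 0.17, 0.46 and -0.32 at 6 w p.i. In Py230 tumors it scored -0.77, -0.39 and -0.38, then -0.60, -0.56 and -0.85, then -0.64, -0.76 and -0.52. Every 4T1 tumor lay above every Py230 tumor of the same week, although its first and second 3-week 4T1 libraries lay at opposite ends of their group. The difference was 0.66 ± 0.17 at 1 w p.i. (adjusted p = 0.0096), 0.53 ± 0.17 at 3 w p.i. (adjusted p = 0.020) and 0.75 ± 0.17 at 6 w p.i. (adjusted p = 0.00093). The 3-week difference did not pass without the first 3-week 4T1 tumor or with only both groups in the fit. Against BALB/c glands, which fell between -0.96 and -0.46, the difference was 0.74 (adjusted p = 0.0086), 0.48 (adjusted p = 0.10) and 0.93 (adjusted p = 5.3e-05) at the successive weeks. In Py230 tumors it was within 0.19 units of the C57BL/6 glands at each week.

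Gzmb (ENSMUSG00000015437, chr14:56258838-56262260, minus strand), the gene of granzyme B, which cleaves caspases, differed between 4T1 and Py230 tumors at 1 w p.i. and varied widely between 4T1 tumors. In 4T1 tumors it scored 0.49, -0.08 and 0.57 at 1 w p.i., 0.49, -0.44 and -0.25 at 3 w p.i., and 0.15, 0.34 and -0.50 at 6 w p.i., whereas BALB/c glands stayed between -0.57 and -0.30. The tumors overlapped the glands at 3 and 6 w p.i. but not at 1 w p.i. It was higher in 4T1 tumors at 1 w p.i., by 0.69 ± 0.20 over Py230 tumors (adjusted p = 0.017), and higher than in glands by 0.73 at 1 w p.i. (adjusted p = 0.017) and by 0.46 at 6 w p.i. (adjusted p = 0.045). The last call was lost without any 1 of 5 of its 6 libraries, all but the third 4T1 tumor (0.29 to 0.49, adjusted p = 0.070 to 0.25). None of the 12 groups stood apart from its neighbour in the order.

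Nkg7 (ENSMUSG00000004612, chr7:43437073-43438249, plus strand), a membrane protein of cytotoxic granules, was higher in 4T1 tumors than in BALB/c glands at every week. Its 4T1 scores were 0.40, 0.18 and 0.38 at 1 w p.i., 0.74, -0.17 and 0.13 at 3 w p.i., and 0.00, 0.02 and 0.00 at 6 w p.i., against gland scores of -0.65 to -0.17. Tumors and glands of the same week did not overlap at any week, the closest being the second 3-week tumor (-0.17) and the highest 3-week gland (-0.33). The differences from the glands were 0.67, 0.62 and 0.51 ± 0.16 (adjusted p = 0.0098, 0.038 and 0.0087). The 3-week call was lost without the first 3-week 4T1 tumor or any 1 of the 3-week glands. With only both groups in the fit the calls at 1 and 3 w p.i. were lost. Against Py230 tumors only the difference at 1 w p.i. passed (0.57 ± 0.16, adjusted p = 0.016), with 0.29 and 0.06 at the later weeks.

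Ncr1 (ENSMUSG00000062524, chr7:4337724-4345164, plus strand), which encodes the NK cell receptor NKp46, followed the course of Gzma. In 4T1 tumors it scored 0.29, 0.16 and 0.37 at 1 w p.i., 0.16, -0.23 and 0.12 at 3 w p.i., and -0.63, -0.83 and -0.93 at 6 w p.i. In Py230 tumors it ranged from -0.73 to -0.36 at 1 w p.i., from -0.73 to -0.32 at 3 w p.i. and from -0.84 to -0.74 at 6 w p.i. The models did not overlap in the first 2 of these weeks and were intermixed in the last. The difference was 0.77 ± 0.12 at 1 w p.i. (adjusted p = 5.9e-05) and 0.51 ± 0.12 at 3 w p.i. (adjusted p = 0.0017), and its mean in both models was at -0.8 by 6 w p.i. (-0.80 and -0.79). From 3 to 6 w p.i. it fell in 4T1 tumors by 0.81 ± 0.12 (adjusted p = 2.9e-06). It was 0.59 above BALB/c glands at 1 w p.i. (adjusted p = 0.0051), and at 6 w p.i. lower than in them by 0.30 (adjusted p = 0.030), a call lost without any 1 of 3 libraries (the second and the third 4T1 tumors and the first gland) and under 2 other scalings of the libraries (adjusted p = 0.078 to 0.19).

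Klrk1 (ENSMUSG00000030149, chr6:129610323-129623864, minus strand), the gene of the activating receptor NKG2D of NK and T cells, differed between 4T1 tumors and their glands at 1 w p.i., with scores of 0.39, 0.24 and 0.34 against -0.13, -0.45 and -0.08 (0.54 ± 0.16, adjusted p = 0.028). At 3 and 6 w p.i. the differences of 0.43 and 0.35 did not pass (adjusted p = 0.13 and 0.064), the latter passing under 2 other scalings, with only both groups in the fit and without the first 6-week gland (0.35 to 0.50, adjusted p = 0.018 to 0.043). It did not pass between 4T1 and Py230 tumors at any week, where the differences were 0.29, 0.14 and 0.01. Py230 tumors (-0.36 to 0.25) overlapped C57BL/6 glands (-0.13 to 0.49) throughout. The 3 BALB/c gland groups had the lowest Klrk1 of all groups.

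Eomes (ENSMUSG00000032446, chr9:118478212-118486132, plus strand), the transcription factor gene, differed between the models at every week. Its 4T1 scores were 0.17, -0.23 and 0.27 at 1 w p.i., 0.28, -0.53 and -0.22 at 3 w p.i., and -0.09, -0.03 and 0.02 at 6 w p.i. Its Py230 scores were -0.89, -0.53 and -0.49, then -0.56, -0.59 and -0.79, then -0.69, -0.75 and -0.65. Every 4T1 tumor was above every Py230 tumor of its week. The difference was 0.70 ± 0.15 (adjusted p = 0.0026), 0.49 (adjusted p = 0.016) and 0.66 (adjusted p = 0.00093), and against BALB/c glands, at -1.13 to -0.50, it was 0.80 (adjusted p = 0.0047), 0.66 (adjusted p = 0.028) and 0.92 (adjusted p = 1.4e-05). Neither 3-week difference passed without the first 3-week 4T1 tumor or with only both groups in the fit. That from the glands was also lost without any 1 of the 3-week glands.

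Ifng (ENSMUSG00000055170, chr10:118441046-118445892, plus strand), the cytokine gene, was low everywhere. In 4T1 tumors it scored -1.48, -1.65 and -1.37 at 1 w p.i., -1.03, -1.71 and -1.53 at 3 w p.i., and -1.41, -1.48 and -1.48 at 6 w p.i., and in BALB/c glands between -1.85 and -1.68. In Py230 tumors it ranged from -1.80 to -1.62 at 1 w p.i. and from -1.53 to -1.42 at 6 w p.i. The first 3-week 4T1 tumor was the highest library of all 36. The difference from BALB/c glands passed at 6 w p.i. (0.33 ± 0.10, adjusted p = 0.0083) and not at 1 or 3 w p.i. (0.21 and 0.32, adjusted p = 0.15 and 0.087), and no difference between the tumor models passed (0.24, 0.19 and 0.01). Without the second 1-week or the second 3-week 4T1 library the differences between the models passed (0.31 and 0.33, adjusted p = 0.045 and 0.016), and the 3-week difference from glands passed without the second or the third 4T1 library (0.46 and 0.37). With cyclic loess scaling the 6-week difference was 0.22 (adjusted p = 0.060).

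Cxcl10 (ENSMUSG00000034855, chr5:92346638-92348889, minus strand), a chemokine gene, was the 1 member that was higher than in glands in Py230 tumors, and it was higher in old 4T1 tumors too. It scored -0.67, 0.04 and 0.29 in Py230 tumors at 1 w p.i., 0.46, 0.43 and 0.01 at 3 w p.i., and 0.71, 0.42 and 0.83 at 6 w p.i., when C57BL/6 glands scored -0.44, 0.09 and -0.11. The 6-week tumors lay above their glands without overlap and had the highest group mean, 0.65. Cxcl10 was higher in Py230 tumors than in glands at 3 w p.i. by 0.76 ± 0.24 (adjusted p = 0.026) and at 6 w p.i. by 0.81 ± 0.24 (adjusted p = 0.0068), and at 1 w p.i. the difference was -0.07. In 4T1 tumors it scored 0.11, 0.04 and -0.28, then 0.52, -0.63 and -0.24, then 0.38, 0.25 and 0.34, against 6-week glands at -0.65, -0.77 and -0.87. Against BALB/c glands the difference was 0.65 at 1 w p.i. (adjusted p = 0.059), 0.47 at 3 w p.i. (adjusted p = 0.26) and 1.09 at 6 w p.i. (adjusted p = 0.00038). The differences between the tumor models in Cxcl10 did not pass (0.07, -0.41 and -0.33, adjusted p = 0.86, 0.20 and 0.29), although at 6 w p.i. the 4T1 libraries all lay below the Py230 libraries and the difference passed with only both groups in the fit (adjusted p = 0.034).

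Cxcl9 (ENSMUSG00000029417, chr5:92321347-92328079, minus strand), the neighbouring chemokine gene, scored 1.09, 0.85 and 0.62 in 4T1 tumors at 1 w p.i., 1.52, 0.46 and 0.90 at 3 w p.i., and 1.06, 0.94 and 0.96 at 6 w p.i., against 6-week glands at 0.25, 0.16 and 0.27. In Py230 tumors it scored 0.07, 0.54 and 0.45, then 1.04, 1.07 and 0.60, then 1.21, 0.84 and 1.38. It was higher in 4T1 tumors than in glands at 6 w p.i. by 0.76 ± 0.20 (adjusted p = 0.0020). The difference of 0.50 between the tumor models at 1 w p.i. had an adjusted p of 0.077, and the later ones were 0.06 and -0.16. The change of 0.55 in Py230 tumors from 1 to 3 w p.i. had an adjusted p of 0.052, and 0.016 without the third 3-week Py230 library.

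Between the tumor models, 4T1 tumors carried more of this program early, and fewer genes passed as higher at the later weeks. At 1 w p.i. 6 of the 10 genes were higher in the 4T1 model (Gzma, Gzmb, Prf1, Nkg7, Ncr1 and Eomes) and none was lower, where 19.4% of all genes passed and 11.0% passed as higher. At 3 w p.i. it was 3 (Prf1, Ncr1 and Eomes), with 30.3% of all genes passing and 11.9% higher, and at 6 w p.i. 2 (Prf1 and Eomes), with 40.8% passing and 24.1% higher. The median difference of the 10 genes was 0.61, 0.24 and 0.01, beside medians over all genes of 0.01, -0.01 and 0.04. At 1 w p.i. the groups did not overlap for 7 of the 10, against 39.1% of all genes. In whole tissue, fewer cells of a type and less RNA per cell cannot be told apart. The 8 general leukocyte genes moved with the program. All 8 were higher in 4T1 tumors at 1 w p.i., 4 at 3 w p.i. and none at 6 w p.i., and the library means of the list ranged over 1.43 to 1.75 in 4T1 and 0.89 to 1.29 in Py230 tumors at 1 w p.i. Of the 13 T cell genes 9, 1 and 0 were higher. Relative to the mean of those leukocyte genes, a scaling added after the data were seen, Gzma and Ncr1 stayed higher at 1 w p.i. and Cxcl10 was lower (-0.42, adjusted p = 0.024), and at 3 w p.i. only Cxcl10 passed, as lower (-0.76). Gzma, Ncr1 and Eomes passed at 1 w p.i. without the first or the third 4T1 library or without the first Py230 library. With only both groups in the fit, 3 genes passed at 1 w p.i., none at 3 w p.i. and 4 at 6 w p.i., where Gzma and Cxcl10 were added as lower. In the fit of all groups 1 passed at 3 w p.i. without the third Py230 library and 5 without the second 4T1 library. Without the first 3-week 4T1 library Prf1 and Eomes were lost at 3 w p.i. and Cxcl10 passed as lower (-0.73).

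Against the Matrigel glands of their own strain, 4T1 tumors had 7 of the 10 genes higher at 1 w p.i., where 16.6% of all genes passed and 9.91% passed as higher. The exceptions were Ifng, Cxcl9 and Cxcl10, the interferon arm. At 3 w p.i. only Nkg7 and Eomes passed, in a comparison in which 3.25% of all genes did and 2.10% were higher. The unadjusted p in limma was under 0.05 for 8 of the 10 there, and for 9 each at 1 and 6 w p.i. At 6 w p.i. 8 passed, of 60.1% of all genes: 7 were higher (38.6% of all genes were) and Ncr1 was lower (as were 21.5% of all genes). Ifng, Cxcl9 and Cxcl10 were then among the genes that passed, and Gzma, with the largest difference at 1 w p.i., was not. The median differences were 0.66, 0.42 and 0.49, and those of all genes -0.01, -0.01 and 0.07. All 10 genes were apart from the glands at 1 w p.i., against 32.4% of all genes. All 8 leukocyte genes were higher at 1 w p.i., 3 at 3 w p.i. and 7 at 6 w p.i. Relative to their mean, none of the 10 genes was higher at 1 w p.i. and Ifng was lower (-0.45), none passed at 3 w p.i., and 5 passed at 6 w p.i. On its own score Ifng, a low gene measured less well, was 0.21 above the glands at 1 w p.i. and did not pass. The negative sign came from the subtracted leukocyte mean, which was 1.63 in tumors and 0.97 in glands. At 6 w p.i. the values relative to the leukocyte mean went both ways. Tumors were below glands for Gzma (-1.88 against -1.21) and Ncr1 (-2.09 against -1.38). They were above glands for Prf1 (-1.19 against -1.71), Eomes (-1.33 against -1.83) and Cxcl10 (-0.97 against -1.64). All 8 adipocyte genes and 7 of 8 skeletal muscle genes were lower in 6-week 4T1 tumors (medians -2.05 and -2.74), and their part in the result was not tested. The 3-week count was 0 without the first 3-week 4T1 library or without any 1 of the 3-week glands and 7 without the second 4T1 library. The 1-week count was 3 without the first 1-week 4T1 library, 1 without the third 1-week 4T1 library or the second 1-week gland, and 0 with only both groups in the fit.

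**Figure D2:**
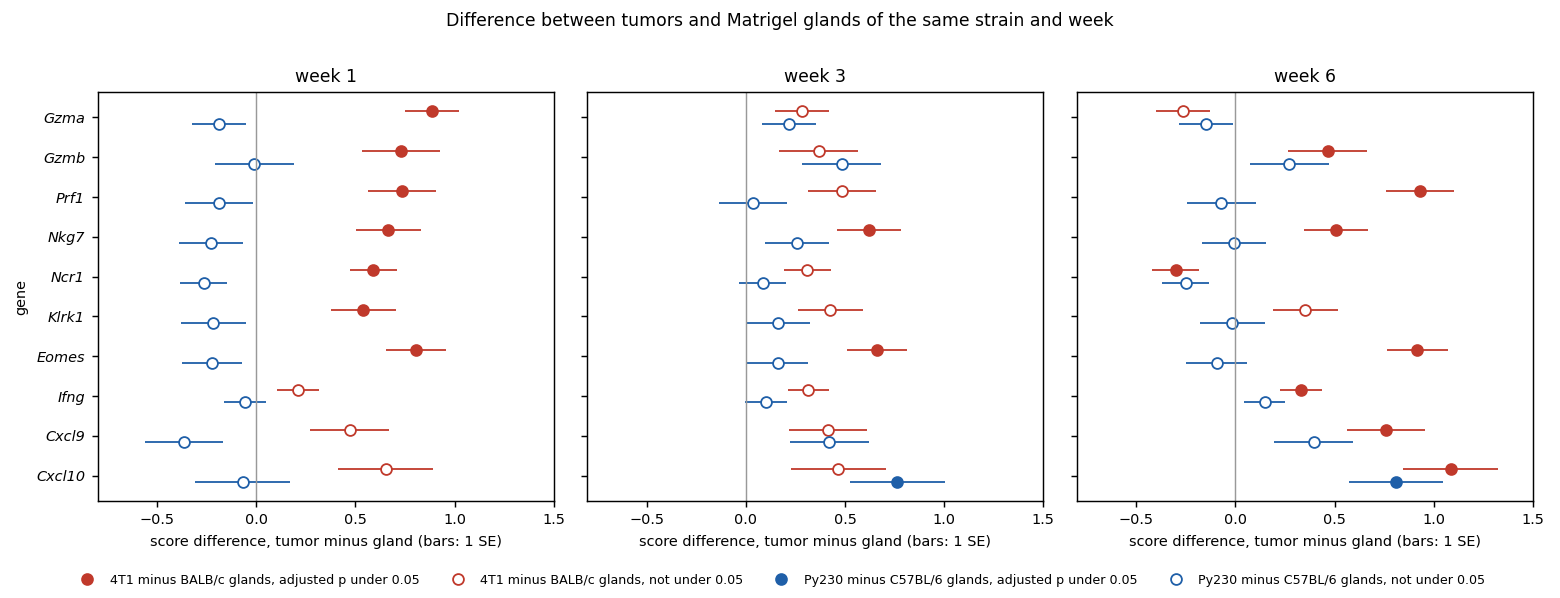
Score difference (x axis) between tumors and Matrigel glands of the same strain and week for each gene (y axis), with bars of 1 SE and filled symbols where the adjusted p was under 0.05. 4T1 tumors (red) show Gzma at 0.89 at 1 w p.i. and -0.27 at 6 w p.i., and Cxcl10 at 0.65 and 1.09, while in Py230 tumors (blue) Cxcl10 is the gene with filled symbols, at 0.76 and 0.81.

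Py230 tumors were close to their glands in this program. At 1 w p.i. none of the 10 genes passed in limma, while 2 of all genes did (0.00924%), and the median difference was -0.20. The unadjusted p was under 0.05 for 1 of the 10, Ncr1 (-0.27, adjusted p = 0.65). At 3 and 6 w p.i. Cxcl10 passed alone, where 19.7% and 47.6% of all genes passed and 12.8% and 28.8% were higher, with median differences over the 10 genes of 0.19 and -0.01. Gzmb was 0.48 above the glands at 3 w p.i. (adjusted p = 0.086), and Ncr1 -0.25 at 6 w p.i. (adjusted p = 0.083). No leukocyte gene passed at any week, and 0 of the 8 had an unadjusted p under 0.05 in limma. All 8 adipocyte genes were lower in 6-week Py230 tumors as well (median -1.72). Cxcl10 at 3 w p.i. was lost without any of 4 libraries or with only both groups in the fit (adjusted p = 0.10), and with those groups alone Gzmb (0.27) and Ncr1 (-0.25) passed beside it at 6 w p.i. Without the third 3-week Py230 library Gzmb (0.62) and Cxcl9 (0.57) passed too, as did Cxcl9 at 6 w p.i. without the second tumor or the second gland (0.55 and 0.57).

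The strains differed in a few members without any tumor cells. Over the 3 weeks, Nkg7 was lower in BALB/c than in C57BL/6 Matrigel glands by 0.29 ± 0.09 (adjusted p = 0.046), Klrk1 by 0.32 (adjusted p = 0.025) and Cxcl10 by 0.46 ± 0.14 (adjusted p = 0.029), and no member was higher. In this comparison 11.0% of all genes passed and 5.49% were lower in BALB/c glands. The differences of Gzma and Ncr1 were 0.03 and 0.08. Leaving out 1 gland left 0 to 4 of these calls, with none left without the second 1-week or the third 6-week BALB/c gland or the first 1-week or second 6-week C57BL/6 gland.

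Set against that strain difference, the 4T1 to Py230 difference was tested as an interaction, the tumor difference minus the gland difference of the same week. At 1 w p.i. it passed for Gzma (1.07 ± 0.19, adjusted p = 0.034), Ncr1 (0.86 ± 0.17, adjusted p = 0.035) and Eomes (1.03 ± 0.22, adjusted p = 0.043), when 0.305% of all genes passed and 0.240% did so with a positive sign. At 3 w p.i. no member passed in limma, while 9.15% of all genes did, and the unadjusted p was under 0.05 for 1, Eomes (0.50, adjusted p = 0.14). At 6 w p.i. Prf1 (1.00 ± 0.24, adjusted p = 0.0030) and Eomes (1.01 ± 0.22, adjusted p = 0.00088) passed, as did 25.5% of all genes, 14.4% with a positive sign. Eomes passed at both 1 and 6 w p.i., and the 1-week value of Prf1 fell short of passing (0.92 ± 0.24, adjusted p = 0.068). At 1 w p.i. the unadjusted p in limma was under 0.05 for 9 of the 10. The 3 calls at 1 w p.i. were lost without any 1 of 7 of the 12 libraries (first and the third 4T1, first Py230, first and second BALB/c and first and the third C57BL/6) and, without the second 4T1 library, 7 genes passed. The count was 5 without the second C57BL/6 gland and 2 without the second Py230 library, which lost Eomes, and at 3 w p.i. Eomes passed without the second 4T1 library (0.69). The 3 calls were also lost with only the 1-week groups in the fit (adjusted p = 0.19), and relative to the leukocyte genes 1 gene passed there, Ifng as lower (-0.49). On its own score the interaction of Ifng was 0.27 and did not pass. At 6 w p.i. 2 genes passed without each library in turn.

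Within the 4T1 model, Gzma alone passed from 1 to 3 w p.i., in a step in which 0.628% of all genes did and 0.374% fell, and Gzma and Ncr1 passed from 3 to 6 w p.i., both falling, in a step in which 53.0% of all genes passed and 18.8% fell. Prf1 (0.24), Eomes (0.12) and Cxcl10 (0.44) had differences of the other sign in that step that did not pass (adjusted p = 0.24, 0.51 and 0.13). In Py230 tumors no member passed in limma in either step, where 20.0% and 6.03% of all genes did, and the unadjusted p was under 0.05 for 1 gene in each, Cxcl9 and Ncr1 (-0.30, adjusted p = 0.14). The change of the model difference itself passed for Gzma from 1 to 3 w p.i. (-0.75 ± 0.19, adjusted p = 0.012, with 15.3% of all genes passing and 10.4% negative) and for Gzma (-0.53, adjusted p = 0.043) and Ncr1 (-0.52, adjusted p = 0.022) from 3 to 6 w p.i. (26.7% of all genes, 8.88% negative). None of the 8 leukocyte genes passed in either 4T1 step, nor had any an unadjusted p under 0.05 in limma (medians -0.22 and -0.12). Other lists moved in the step from 3 to 6 w p.i. All 8 adipocyte and 7 of 8 mast cell genes fell, the mast cell mean from 0.26 to -0.39. Of 6 plasmacytoid dendritic cell genes 3 fell and 2 rose (mean 0.30 to -0.22), and of 10 neutrophil genes 7 rose and 1 fell (mean -0.36 to 0.13). Their part in the fall of Gzma and Ncr1 was not tested. Scored against the mean of the 8 leukocyte genes, Gzma went from -0.71 to -1.22 to -1.88 and Ncr1 from -1.36 to -1.39 to -2.09 over the 3 weeks. The 1-to-3-week call of Gzma was lost on that scale (-0.51, adjusted p = 0.20), without any 1 of 4 of the 6 libraries (first and the third 1-week, second and the third 3-week) and with only both groups in the fit, and without the first 3-week tumor Gzmb (-0.67) and Eomes (-0.44) passed as well. The changes of the model difference were lost on that scale and with only the 4 groups concerned in the fit. For the change of the model difference from 3 to 6 w p.i., neither call was left with median and MAD scaling, and 1 was with quantile scaling. In that change the call of Gzma was also lost without any 1 of 7 and that of Ncr1 without any 1 of 4 of the 12 libraries. Both were lost without the first 3-week 4T1 or the third 3-week Py230 library. The change of the model difference from 1 to 3 w p.i. gained Gzmb without the second 1-week 4T1 or the third 3-week Py230 library. It gained Gzmb, Nkg7 and Cxcl9 (-0.97, -0.53 and -0.73) without the first 3-week 4T1 library. The step from 3 to 6 w p.i. within 4T1 tumors had 2 to 5 calls without each library in turn. Without the first 3-week 4T1 tumor 5 members passed in that step, with Prf1 (0.42), Eomes (0.34) and Cxcl10 (0.76) as higher. Nkg7 passed in it without the second 3-week tumor (-0.43) and Prf1 without the third 6-week tumor (0.45).

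**Figure D3:**
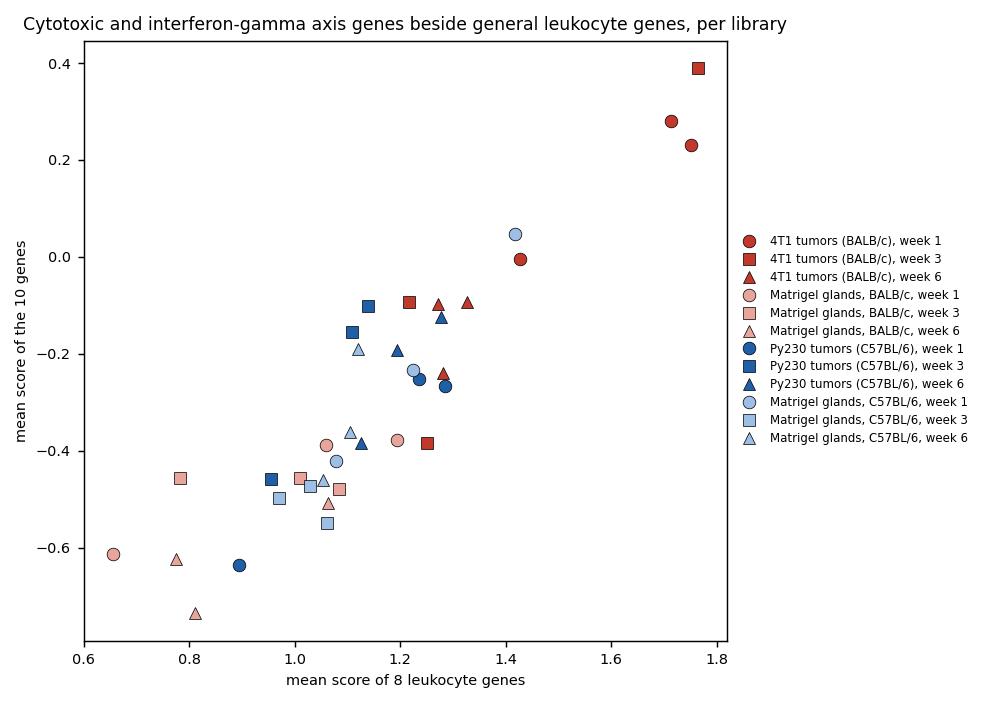
Mean score of the 10 genes (y axis) against the mean score of 8 general leukocyte genes (x axis) in each of the 36 libraries, coloured by tumor or gland and shaped by week. The 1-week 4T1 tumors and the first 3-week 4T1 tumor lie at the upper right, with leukocyte means of 1.43 to 1.76, and the 6-week 4T1 tumors have leukocyte means of 1.27 to 1.33.

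Over the 36 libraries the 10 genes did not all follow the same course, and they did not fall into separate sets. Nkg7 correlated at 0.87 with Eomes and at 0.82 with Ifng, and Ifng at 0.85 with Cxcl9. Gzma and Ncr1 correlated at 0.91, Prf1 and Eomes at 0.92, Nkg7 and Klrk1 at 0.90, and Cxcl9 and Cxcl10 at 0.86, whereas Cxcl10 correlated at 0.03 with Gzma and at -0.11 with Ncr1. The median over the 45 pairs was 0.64. On deviations from the group means, where group differences are removed, the pairs ranged from 0.49 to 0.91 (median 0.74), so within a group the libraries that were high in 1 gene were high in the others, Gzma and Ncr1 with Cxcl10 included (0.61 and 0.62). These correlations are descriptions. The libraries share tissue, scaling and unknown depth.

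**Figure D4:**
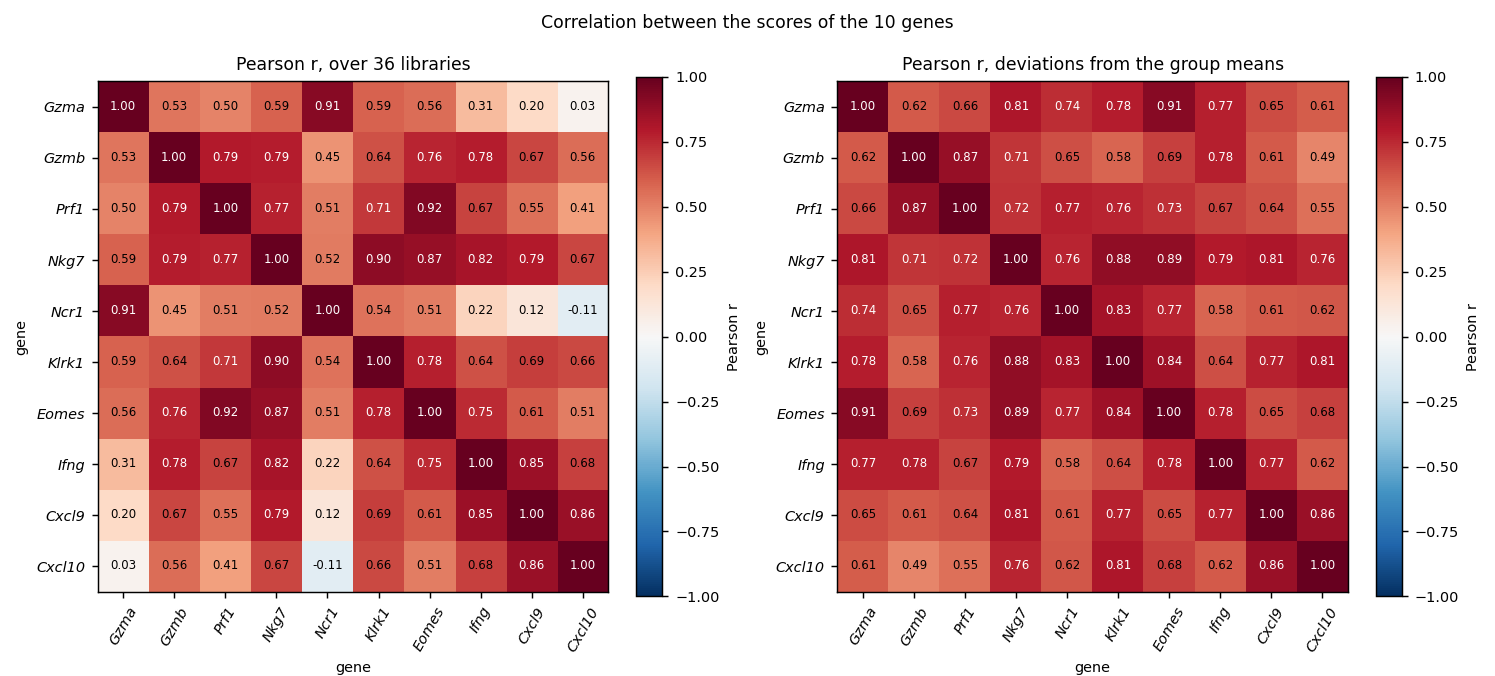
Pearson r between the scores of each pair of genes, over the 36 libraries (left) and over deviations from the group means (right), on a color scale from -1 to 1. Gzma and Ncr1 reach 0.91 with each other and -0.11 to 0.31 with Ifng, Cxcl9 and Cxcl10 on the left, and on the right every pair is at 0.49 or more.

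The genes whose scores ran most like each member were searched among 19064 other genes whose mean normalized count was 10 or more. Nearest to both Gzma (r = 0.91) and Ncr1 (0.90) was Klra3, a Ly49 receptor of NK cells, followed by Gabarap (0.87) and Tbc1d22a (0.87). Nearest to Nkg7 were Il2rb (0.97), a receptor chain for interleukin-2 and interleukin-15, and Lck (0.96), the kinase of the T cell receptor, and nearest to Klrk1 were Ptpn22 (0.92) and Ms4a4b (0.91). Eomes ran with Acap1 (0.94) and Ccdc88b (0.94), Prf1 with Gm14699 (0.91) and AI413582 (0.91), and Gzmb with Ap5z1 (0.89) and Mroh1 (0.89). Ifng ran with Psmb9 (0.90), an immunoproteasome subunit, and Tapbpl (0.89), Cxcl9 with Tgtp1 (0.93), and Cxcl10 with Gbp3 (0.95) and Irgm1 (0.93), the last 3 being interferon-gamma target genes. These are among the closest of many genes and were not tested.

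The other genes of the pathway were read as lists. Of 24 measured NK receptor and signaling genes, 10 were higher in 4T1 tumors and 3 lower than in Py230 tumors at 1 w p.i. (median 0.29). The counts were 5 and 3 at 3 w p.i., and 2 and 3 at 6 w p.i. (median -0.04). Of all genes 11.0%, 11.9% and 24.1% were higher and 8.43%, 18.5% and 16.7% lower at these weeks. The leading genes at 1 w p.i. were Klra8 (-0.65, adjusted p = 1.1e-05), the receptor Ly49H known from C57BL/6 mice, which was also lower in BALB/c than in C57BL/6 glands (-0.60), and Klrb1f (0.55). The Ly49 genes (Klra) are close copies of each other and differ between strains, so their counts on 1 reference genome are uncertain. Against BALB/c glands 16 of the 24 were higher at 1 w p.i., where 9.91% of all genes were, and Klrb1f (0.64) and Klrb1c (0.54), the NK1.1 gene, led. From 3 to 6 w p.i. 5 NK genes fell in 4T1 tumors, led by Cd226 (-0.89), an activating receptor, and Klrb1f (-0.57), and 1 rose. The share of the list that fell was near the 18.8% of all genes. The lymphocyte transcription factors had 5, 3 and 2 of 13 higher and 0, 1 and 2 lower between the models, beside the same shares of all genes. At 6 w p.i. neither count was above its share (24.1% and 16.7%). Among those higher at 1 w p.i. was Tbx21 (0.34, adjusted p = 0.022), the T-BET gene, which fell in 4T1 tumors from 3 to 6 w p.i. by 0.40.

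T cell genes were mostly higher in 4T1 tumors than in glands at the first 2 time points. Of 13, 11 were higher at 1 w p.i. (9.91% of all genes), 10 at 3 w p.i. (2.10%) and 6 at 6 w p.i., the last near the 38.6% of all genes, with Cd8a (1.03 ± 0.21, adjusted p = 0.00017) and Cd8b1 (0.81), the CD8 chains of cytotoxic T cells, leading at 6 w p.i. The library means at 3 w p.i. were -0.38 to 0.53 in 4T1 tumors and -0.60 to -0.54 in BALB/c glands. The 3-week count was not repeated without the first 3-week tumor. From 3 to 6 w p.i. 5 of the 13 fell in 4T1 tumors, where 18.8% of all genes did, led by Cd2 (-0.63) and Cd4 (-0.78). In Py230 tumors none of the 13 passed against glands at any week, and 0 had an unadjusted p under 0.05 in limma. The NKG2D ligands, which Klrk1's product binds, were all higher than in glands at 6 w p.i. in both models, 4 of 4 measured, where 38.6% of all genes were in 4T1 and 28.8% in Py230 tumors, among them Raet1a (0.76 in 4T1 and 0.55 in Py230 tumors) and Raet1e (0.62 and 0.23).

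Genes that respond to interferon-gamma had positive median differences between 4T1 tumors and glands at each week, and the most passed at 6 w p.i. Of 30 such genes, 15 were higher in 4T1 tumors than in glands at 1 w p.i. (median 0.34), 4 at 3 w p.i. (median 0.34), and 26 with 1 lower at 6 w p.i. (median 0.47, against 0.07 for all genes, of which 38.6% were higher). The unadjusted p in limma was under 0.05 for 24, 23 and 27 of the 30 at the successive weeks. Batf2 (0.79) and Psmb10 (0.47) led at 6 w p.i. In Py230 tumors 0, 5 and 8 of the 30 were higher than in glands, near the share of all genes at 3 w p.i. (12.8%) and at 6 w p.i. (28.8%), with Irgm1 (0.46) and Gbp3 (0.42) leading at 3 w p.i. and Iigp1 (0.61) higher and Serping1 lower (-0.74) at 6 w p.i. Between the models 10, 6 and 4 were higher in 4T1 tumors (11.0%, 11.9% and 24.1% of all genes), led each week by Gbp2b (1.67, 1.27 and 1.18), a guanylate-binding protein gene that was also higher in BALB/c than in C57BL/6 glands (0.93). Of 17 type I interferon response genes none was higher in 4T1 tumors than in Py230 tumors at any week, and 2, 7 and 2 were lower (8.43%, 18.5% and 16.7% of all genes). Upstream of the cytokine, 7 of 15 inducer and inducer receptor genes were higher in 4T1 tumors than in glands at 6 w p.i., near the 38.6% of all genes, led by Il12rb1 (1.23), an interleukin-12 receptor chain, and Il18rap (0.91). Of 8 genes of the interferon-gamma receptor and its signaling, 6 were higher and 1 lower there, with Jak2 (0.69) and Irf1 (0.36) in front.

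Gzmd, Gzme and Gzmg, 3 other granzyme genes, rose in old 4T1 tumors, in which Gzma had fallen. Of 15 other granzyme and granule genes measured, 2 were higher in the 4T1 model at 1 w p.i., Srgn (0.55) and Gzmk (0.45), where 11.0% of all genes were. At 6 w p.i. 5 were higher and 1 lower, where 24.1% of all genes were higher and 16.7% lower. From 3 to 6 w p.i. in 4T1 tumors 7 of the 15 passed, where 53.0% of all genes did. Gzme averaged -1.98 at 1 w p.i., -1.82 at 3 w p.i. and 0.47 at 6 w p.i. in 4T1 tumors and stayed between -2.13 and -1.78 in the means of all other groups. Gzmd averaged -2.03, -1.99 and 0.55. The step from 3 to 6 w p.i. was 2.29 for Gzme (adjusted p = 7.3e-13) and 2.54 for Gzmd (adjusted p = 3.5e-11), larger than that of any of the 10 genes. Gzmg, named after its values were seen, had a step of 2.66 (adjusted p = 5.9e-07) with 6-week libraries between -1.24 and 1.69. These granzymes are close copies of each other, and how reads shared among them were counted is not given in the sources used here. Gzmc, also named after its values were seen, was higher than in glands at 6 w p.i. in 4T1 (1.22) and in Py230 tumors (0.84, adjusted p = 0.00022).

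**Figure D5:**
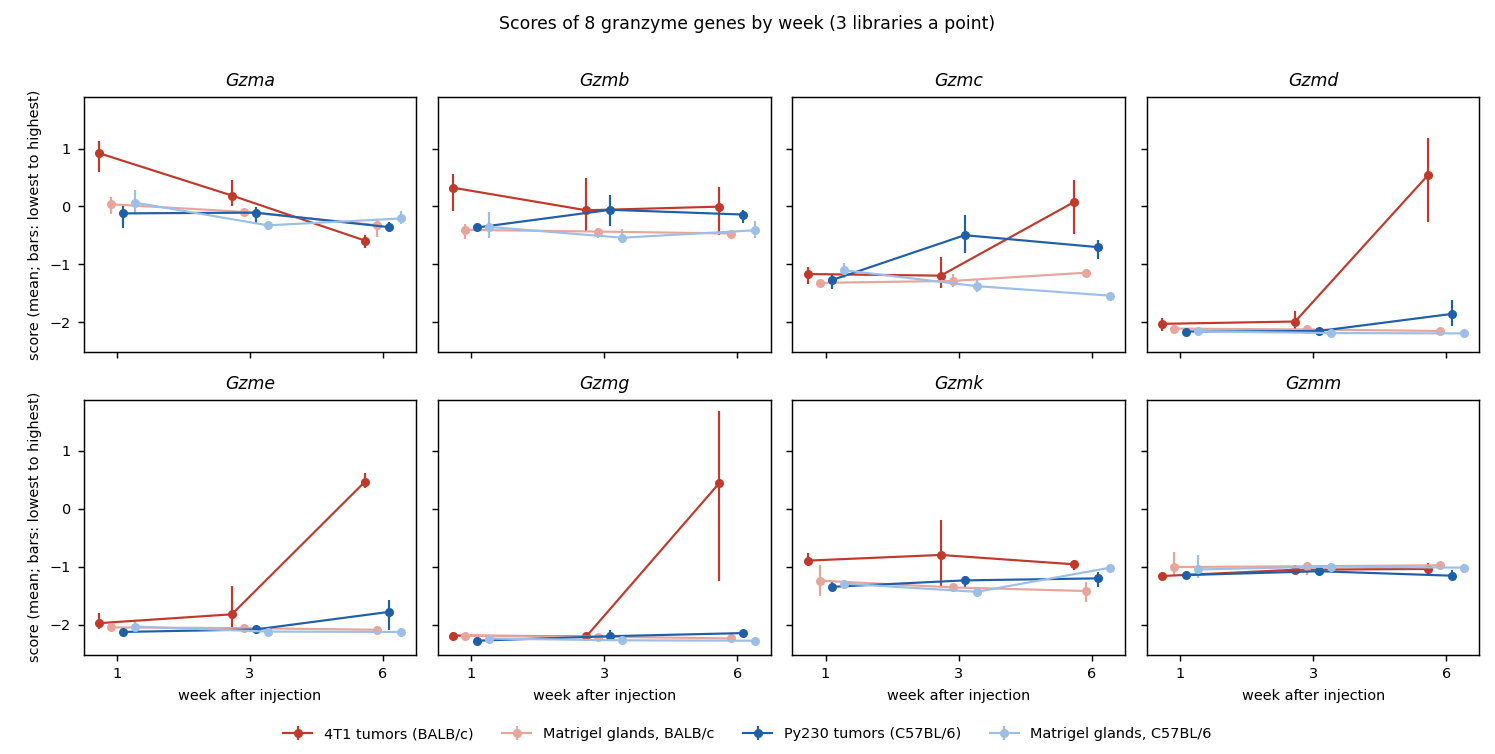
Score of 8 granzyme genes (y axis) by week post-inoculation (x axis), as the mean of 3 libraries with bars from the lowest to the highest, for both tumor models and the Matrigel glands of both strains. In 4T1 tumors Gzma ends at -0.59 on average while Gzmd, Gzme and Gzmg end at 0.55, 0.47 and 0.45, and all other group means of these 3 genes are at -1.78 or lower.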

How the data were processed

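RNA was isolated from flash-frozen 4T1 and Py230 tumors and from Matrigel mammary glands, and libraries were made from total RNA with a stranded protocol. Per the labels and the study's methods, the authors aligned reads to mm10 with STAR, counted them with summariseOverlaps and normalized them with DESeq2. Versions and the annotation are not given in the sources used here. The deposited table holds scores: the authors centred each of the libraries at 0 and scaled it to unit SD over its 21650 genes, by a transformation that is not described, so depth is unknown and no counting error could be given. Other deposited columns hold the authors' mean normalized count of each gene, used for the filter below, and the authors' own fold changes and p-values, which were not used.

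Ensembl rows were named from the deposited comparison table (16266 genes) and otherwise from the GENCODE vM21 annotation of mm10 (5384 genes). Limma 3.58.1 (R 4.3.3) was fitted with 1 mean per group to all 36 libraries, with trend and robust moderation and Benjamini-Hochberg adjustment over all genes (threshold 0.05), after it had been tested on simulated data. With 3 libraries a group, an exact permutation test cannot go below p = 0.1. Python 3.11.15 was used for the descriptions. Most pairs of same-numbered libraries did not deviate together (7 of 27 pairs above 0.1, range -0.466 to 0.522), and the labels give no pairing, so they were not paired.

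All 10 genes are named in every comparison, up to 2 called genes with the smallest p from each other list, and the 2 genes most correlated with each of the 10 among those whose mean normalized count reached 10. The 10 genes and the lists were chosen with earlier results of these data known. Alternatives were 3 other scalings, a filter on mean count, moderation without trend, only the groups compared, a replicate block and leaving out each library. A scaling to the mean of 8 leukocyte genes was added after the data were seen. Some listed genes were not among those measured (for example Gzmf and Gzmn) and were not analysed here. Some further results are not reported here.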

Additional observations from a re-analysis of the deposited data

Results flagged for a closer look

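8 values were picked out because an effect differed between groups by a test of the difference itself (limma, adjusted over all genes). At 1 w p.i. the 4T1 to Py230 difference exceeded the difference between BALB/c and C57BL/6 Matrigel glands by 1.07 score units for Gzma (adjusted p = 0.034), by 0.86 for Ncr1 (adjusted p = 0.035) and by 1.03 for Eomes (adjusted p = 0.043). At 6 w p.i. it did so by 1.00 for Prf1 (adjusted p = 0.0030) and 1.01 for Eomes (adjusted p = 0.00088). The difference between the tumor models changed from 1 to 3 w p.i. by -0.75 for Gzma (adjusted p = 0.012). From 3 to 6 w p.i. it changed by -0.53 for Gzma (adjusted p = 0.043) and by -0.52 for Ncr1 (adjusted p = 0.022). With median and MAD scaling 0 of these last 2 calls were left, and with quantile scaling 1.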

How the results depend on the processing

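Cyclic loess scaling and moderation without trend and robustness moved no count of called members by over 1.5 times in any of the 19 comparisons. The replicate block, under which the libraries share only a number, left the counts of called members at 6, 3 and 2 between the models and changed none of the others. Over all genes the calls rose with it in each comparison, from 4196 to 4502 between the models at 1 w p.i. and from 66 to 150 for the 1-week interaction. Why they rose was not tested. No scaling moved the median of all genes by over 0.1.

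With only the groups compared in the fit, the calls between the models were 3, 0 and 4 at the successive weeks (6, 3 and 2 as reported; Gzma and Cxcl10 were the added calls, both lower in 4T1 tumors). They were 0 at 1 and at 3 w p.i. for 4T1 tumors against glands, 0 at 3 w p.i. and 3 at 6 w p.i. for Py230 tumors against glands, and 0 each for the interaction at 1 w p.i., 4T1 tumors from 1 to 3 w p.i. and both changes of the model difference. The change from 3 to 6 w p.i. had 0 calls with median and MAD scaling and 1 with quantile scaling. With a mean count of at least 10, which leaves out Ifng, Cxcl9 passed in Py230 tumors from 1 to 3 w p.i. (1 call). Fewer libraries enter the fits of only the groups compared, and fewer genes the filtered one. All libraries and genes enter the fits with other scalings, and the cause of those losses was not tested.

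Relative to the leukocyte genes, chosen after seeing the data, calls between the models were 3 at 1 w p.i. and 1 at 3 w p.i., and against BALB/c glands 1, 0 and 5. They were 1 for the interaction at 1 w p.i. and 0 for 4T1 tumors from 1 to 3 w p.i. and for both changes of the model difference. Among values that passed on either scale, signs turned for Cxcl10 between the models (-0.42), for Ncr1 (-0.072), Klrk1 (-0.12) and Ifng (-0.45) against BALB/c glands at 1 w p.i., for Ifng there at 6 w p.i. (-0.079) and for Ifng in the 1-week interaction (-0.49). Values that passed on neither scale turned sign too, among them Cxcl9 (-0.19) and Cxcl10 (-0.0093) against BALB/c glands at 1 w p.i.

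Without each library in turn, the calls ranged between the models over 3 to 7, 1 to 5 and 2 to 2, for 4T1 tumors against glands over 1 to 7, 0 to 7 and 6 to 8, and for Py230 tumors against glands over 0 to 0, 0 to 3 and 1 to 2. They ranged over 0 to 4 for the strains, over 0 to 7, 0 to 1 and 2 to 2 for the interaction, over 0 to 3 and 2 to 5 for the 4T1 steps, over 0 to 1 and 0 to 0 for the Py230 steps, and over 1 to 4 and 0 to 2 for the changes of the model difference.

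The share of called genes that were higher, over all genes, moved by over 10 percentage points under some scalings. It went from 59.1% to 49.0% (cyclic loess) or 71.0% (median and MAD) between the models at 6 w p.i. and from 39.1% to 49.4% (median and MAD) at 3 w p.i. With cyclic loess it went from 64.2% to 50.6% for 4T1 tumors against glands at 6 w p.i., from 64.6% to 48.6% for 4T1 tumors from 3 to 6 w p.i., from 64.1% to 53.4% for Py230 tumors from 1 to 3 w p.i., and from 66.8% to 49.3% for the change of the model difference from 3 to 6 w p.i. The interaction went from 28.8% to 39.5% (cyclic loess) at 3 w p.i. and from 56.4% to 69.0% (median and MAD) at 6 w p.i.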
